A study of Mus musculus with 2 samples.

Results

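Open chromatin was examined at 9 genes that are used as markers of mast cells and basophils, Cpa3, Ms4a2, Fcer1a, Tpsb2, Tpsab1, Cma1, Mcpt8, Mitf and Il1rl1, out of 22238 protein-coding genes of the mm9 annotation. The genes were taken by name, and every DNase I hypersensitive peak with its summit in a gene body or within 30 kb of it was kept. Such peaks mark stretches of chromatin that the nuclease DNase I can reach. The data came from 2 samples of male mouse erythroid cells of strain 129, each a bulk culture, in which fewer open cells and less signal per cell cannot be told apart. G1E cells are erythroid progenitors of stem cell origin that lack Gata1 and were left untreated. G1E-ER4 cells are the same kind of cell with Gata1 restored in a form that estradiol turns on, and were collected after 24 h in 10 nM beta-estradiol. The cell line, the restored Gata1, the estradiol and the sample differ together, so their effects cannot be told apart. Each sample came with 2 peak lists of 100000 peaks each. Whether the pair of lists stands for separate cultures is not given by the labels, so their spread may be technical. With 1 sample per state no test between the states was made. Values are percentiles of the peak density within a list, where 100 is the strongest peak, and read depth is unknown.

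Mast cells store proteases and histamine in granules and release them when IgE bound to the high-affinity IgE receptor is cross-linked. They arise from blood progenitors that share Gata2, Kit and Tal1 with the erythroid lineage, and Mitf, a basic helix-loop-helix factor, is required for their maturation. Among the 9 genes, Ms4a2 and Fcer1a encode the beta and alpha chains of the IgE receptor, and Il1rl1 encodes ST2, the receptor for the cytokine IL-33. Cpa3 encodes carboxypeptidase A3, Tpsb2 and Tpsab1 encode tryptases, Cma1 encodes a chymase and Mcpt8 a protease of basophils.

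Sequences are shown for the 5 sites on which the results at Il1rl1, Tpsb2 and Cma1 turn. They are 201 bases of mm9 each, centred on the summit in the list where the site ranked highest, and were chosen after the percentiles were seen. Capitals mark GATA words, of the kind that Gata1 and Gata2 are known to bind, on either strand. The words were AGATAA with its variant AGATAG, and likewise TGATAA with its variant TGATAG. None of these stretches reaches into an annotated exon.
Il1rl1, 106 bp upstream of the first start, chr1:40486209-40486409, plus strand: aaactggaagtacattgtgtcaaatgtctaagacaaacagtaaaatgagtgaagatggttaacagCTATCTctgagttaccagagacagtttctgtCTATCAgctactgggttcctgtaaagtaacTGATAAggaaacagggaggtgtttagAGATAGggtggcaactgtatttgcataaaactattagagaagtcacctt
Il1rl1, 10882 bp upstream of the first start, chr1:40475433-40475633, plus strand: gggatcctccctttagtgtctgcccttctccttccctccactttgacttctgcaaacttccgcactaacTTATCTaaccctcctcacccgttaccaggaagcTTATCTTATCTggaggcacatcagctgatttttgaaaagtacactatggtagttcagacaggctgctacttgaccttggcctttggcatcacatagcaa
Il1rl1, 906 bp downstream of the second start, chr1:40494240-40494440, plus strand: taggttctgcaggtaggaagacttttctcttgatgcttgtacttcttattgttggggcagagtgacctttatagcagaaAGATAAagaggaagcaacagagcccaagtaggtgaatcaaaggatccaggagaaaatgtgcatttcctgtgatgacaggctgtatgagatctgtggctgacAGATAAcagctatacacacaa
Tpsb2, 2615 bp upstream of the start, chr17:25500771-25500971, plus strand: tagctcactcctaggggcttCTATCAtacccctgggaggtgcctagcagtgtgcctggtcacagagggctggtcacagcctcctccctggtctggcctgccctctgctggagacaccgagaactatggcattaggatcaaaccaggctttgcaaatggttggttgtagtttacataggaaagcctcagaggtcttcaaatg
Cma1, 21989 bp downstream of the start, chr14:56541409-56541609, plus strand: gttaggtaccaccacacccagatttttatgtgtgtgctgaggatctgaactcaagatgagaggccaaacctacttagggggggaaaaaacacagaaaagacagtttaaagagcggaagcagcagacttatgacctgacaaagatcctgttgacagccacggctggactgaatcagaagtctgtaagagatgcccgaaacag
The site at the first Il1rl1 start held 4 GATA words, at offsets of -35, -4, 26 and 52 bases from the summit on the plus strand. The site 10882 bp upstream held 3, at offsets of -31, 2 and 7, the last 2 sharing 1 base. Of all 400000 peaks, 29.1% held at least 1 GATA word in a stretch of this length, 6.92% at least 2, 1.30% at least 3 and 0.231% at least 4. The Il1rl1 site 906 bp downstream of the second start had 2, the Tpsb2 site had 1 and the Cma1 site had none. The sites open in all 4 lists at Cpa3 and Ms4a2, not printed here, had 0 and 1. The AP-1 word TGANTCA, searched on both strands like all words here, was present in the Il1rl1 site past the second start and in the Cma1 site, and in 6.83% of all peaks. The Cma1 site also held the RUNX word TGTGGT, found in 16.4% of all peaks. The ETS word AGGAAGT and the STAT word TTCNNNGAA were in none of the 5 stretches, and in 7.60% and 5.54% of all peaks. Words were counted separately, so letters of different words may overlap. The E-box words CATGTG and CACGTG, of the kind that Mitf binds, were in none of the 5 stretches and in 13.8% and 4.24% of all peaks. The Cma1 stretch held no G1E-ER4 summit, and the stretch past the second Il1rl1 start lacked the summit of G1E-ER4 list 1. Word counts thus hold for the printed stretch only. A match is a description of the letters and not evidence of a bound factor.

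The windows of the 9 genes held 28 peaks in G1E-ER4 list 1, 41 in G1E-ER4 list 2, 49 in G1E list 1 and 83 in G1E list 2. G1E list 2 stood apart here, since over all protein-coding genes the median window held 6 peaks in every list. Joining peaks that overlapped by at least 1 bp gave 84 regions in these windows. Of the 84, 47 (56.0%, against 58.5% of all merged regions) were in a single list. Of those 47, 35 (74.5%) were in G1E list 2, which held 23.5% of single-list regions over the genome. These 35 were 41.7% of the 84 regions, where 13.8% of all merged regions were in G1E list 2 alone. The lists differ in covered length (90.7 and 112.6 Mb in G1E-ER4, 76.5 and 99.6 Mb in G1E), and their part in these counts was not tested. A promoter peak in all 4 lists was found at 52.5% of all protein-coding genes and at all 8 erythroid markers. The marker promoters open in all 4 lists were 4 of 6 for megakaryocytes, 1 of 6 for neutrophils, 0 of 4 for eosinophils, 1 of 5 for macrophages, 2 of 5 for B cells, 1 of 5 for T cells, 1 of 5 for melanocytes, 1 of 4 for liver and 2 of 4 for neurons. The erythroid markers were thus all open, as were all 13 of the listed mast cell regulators, some of which the erythroid lineage shares.

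**Figure D1:**
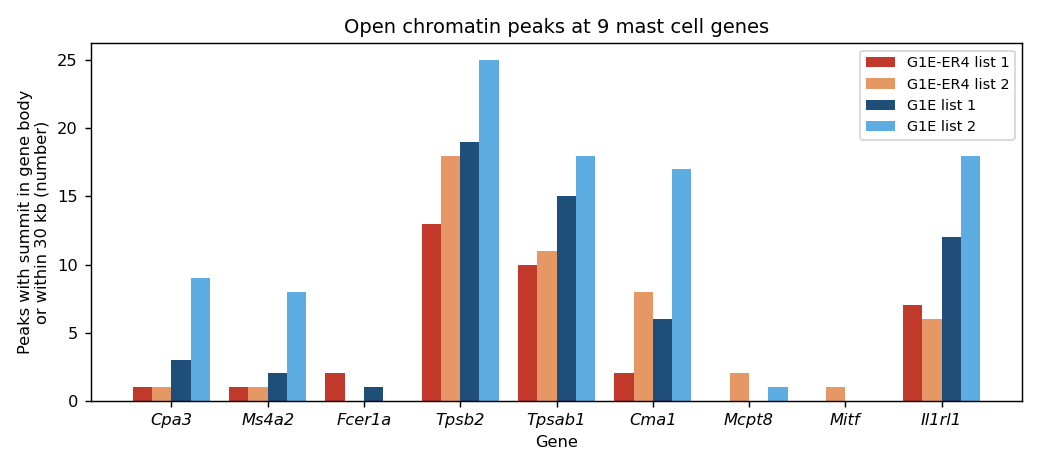
Number of peaks (y axis) with a summit in the gene body or within 30 kb, for each of the 9 genes (x axis) and each of the 4 lists (bars, no error as each bar is 1 list). The windows of Tpsb2 and Tpsab1 overlap and share peaks, Mitf has 1 peak in all, and G1E list 2 has the highest bar at Cpa3, Ms4a2, Cma1, both tryptases and Il1rl1.

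The 9 promoters fell into open, partly open and closed groups. A promoter was counted for a list when a peak reached within 1000 bp of any annotated start. Il1rl1 and Tpsb2 had a promoter peak in all 4 lists, 2 of 9 genes (22.2%, Wilson 95% interval 6.32 to 54.7%, counting error only), where 52.5% of all protein-coding genes had one. With a reach of 500 bp Tpsb2 was lost and only Il1rl1 was left. Tpsab1 had one in both G1E lists and in neither G1E-ER4 list, a pattern of 0.8% of all genes. Cpa3, Ms4a2 and Cma1 had one in G1E list 2 alone, a pattern of 1.05% of all genes (6.76% had one in a single list of any kind). Fcer1a, Mcpt8 and Mitf had none in any list, as did 27.2% of all genes. No gene of the 9 had a promoter peak in the G1E-ER4 lists alone (1.17% of all genes). Even the open promoters were of modest rank, since the mean promoter percentile over the 4 lists was 68.5 at Il1rl1 and 38.5 at Tpsb2, against a median of 93.2 over the 11677 genes open in all 4 lists. At Il1rl1 both G1E values lay above both G1E-ER4 values, as at 13.1% of these 11677 promoters, and at Tpsb2 they overlapped. The reverse order held at 15.8% of the 11677 and at neither gene.

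Of the 14 regions open in all 4 lists, those with the largest differences between the state means lay at Il1rl1. The gene lies on the plus strand at chr1:40486415-40522260 and has 5 annotated starts. In blood cells its transcription is known to begin at a distal promoter, upstream of the one used in fibroblasts. At the first start, the region at chr1:40483652-40487665 had its best peak at 42.4 (list 1) and 44.8 (list 2) in G1E-ER4, against 83.6 (list 1) and 94.2 (list 2) in G1E. Both G1E values lay above both G1E-ER4 values, and the groups did not overlap. The difference of the state means was 45.3 percentile points, while the 2 lists differed by 10.6 points within G1E and by 2.42 points within G1E-ER4. Of 29568 regions open in all 4 lists over the genome, 0.724% had a difference as high in the direction of G1E. The strongest summits of the 4 lists lay within 316 bp of each other, and all but that of G1E-ER4 list 2 fell in the printed stretch with 4 GATA words. The peak of G1E list 2 was 4014 bp wide, that of G1E list 1 750 bp, and those of the G1E-ER4 lists 341 and 531 bp.

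A further pair of Il1rl1 regions open in all 4 lists ranked higher in G1E. In an intron, 2682 bp past the first start, a region at chr1:40488503-40489561 stood at 16.3 and 10.4 in G1E-ER4 against 67.2 and 39.2 in G1E. Its summits were spread over 649 bp, and the G1E-ER4 list 2 peak was joined to the others only through that of G1E list 2. No base of that region was thus under a peak in all 4 lists. Past the second start, an intron region at chr1:40493754-40495268 stood at 35.7 and 53.6 in G1E-ER4 against 72.1 and 83.9 in G1E. In both regions the G1E values exceeded the G1E-ER4 values without overlap. The mean differences of 39.8 and 33.3 points were matched or exceeded by 1.39% and 2.91% of shared regions over the genome.

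Further sites lay upstream of Il1rl1. The region 10882 bp upstream of the first start, at chr1:40474711-40475931 between genes, had percentiles of 84.4 and 88.9 in the G1E lists and no peak in either G1E-ER4 list. Its summits in the 2 G1E lists lay 9 bp apart. Of the 7505 G1E-only regions of the genome, 3.56% had both percentiles at 75 or more, and 0.560% had a mean as high as this one. A weaker G1E-only region at chr1:40480634-40481851 stood at 60.2 and 74.8. Between them, 6579 bp upstream of the first start, the region at chr1:40479540-40480047 had its highest value in G1E-ER4 list 1, 89.7, with no peak in G1E-ER4 list 2, and stood at 53.5 and 67.1 in G1E. At this site the G1E-ER4 lists did not match, and no direction is read from it. Farther out, 29596 bp upstream, the region at chr1:40456427-40457501 stood at 63.1 in G1E-ER4 list 2, had no peak in G1E-ER4 list 1, and stood at 63.2 and 73.5 in the G1E lists.

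**Figure D2:**
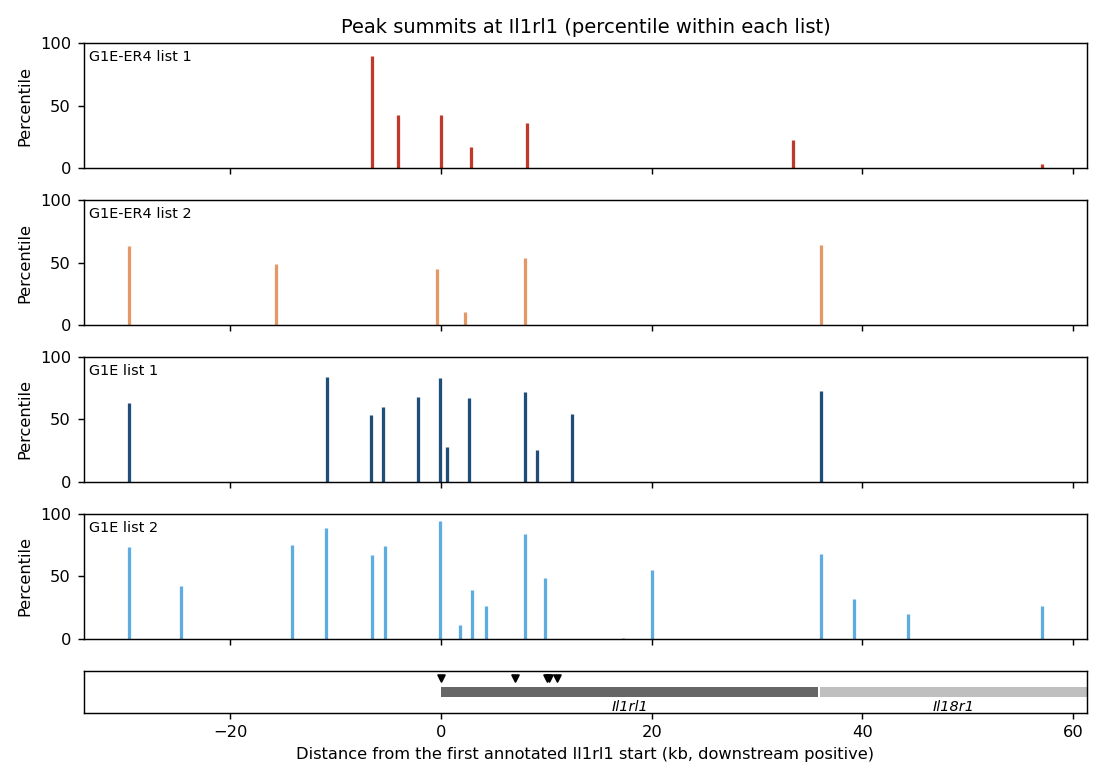
Peak summits at Il1rl1 by distance from its first annotated start (x axis, kb) and percentile within the list (y axis), 1 panel per list; the bottom track shows Il1rl1 with its annotated starts (triangles) and part of Il18r1 in light grey. In the G1E lists the start reaches 83.6 and 94.2 and the site 10.9 kb upstream 84.4 and 88.9, while the G1E-ER4 lists reach 42.4 and 44.8 at the start and have no peak at the upstream site.

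The genes around Il1rl1, named after their values were seen, had promoter peaks in fewer lists. The promoter of Il18r1, which encodes a receptor chain for IL-18 and begins just past the end of Il1rl1, stood at 64.2 in G1E-ER4 list 2 and at 72.6 and 68.2 in G1E, with no peak in G1E-ER4 list 1. Il1r1, a receptor for IL-1, stood at 46.7 in G1E-ER4 list 2 and 61.7 and 40.5 in G1E, again without a peak in G1E-ER4 list 1. Il1rl2 had a promoter peak in 2 lists, Slc9a4 in 1 and Il18rap in none. The 10 Mb stretch that holds Il1rl1 had fewer peaks in G1E-ER4 than in G1E, with a log2 ratio of -0.35, against -0.10 to 0.23 at the other 8 genes; its part in the difference at Il1rl1 was not tested. The 3 genes outside the lists whose promoter percentiles over the 4 lists lay nearest to those of Il1rl1 (42.4, 53.6, 83.6 and 94.2 at any of its starts) were Stk32c, Plaur and Hist1h2al, at Euclidean distances of 8.12, 15.8 and 18.3 percentile points. For Stk32c the 4 values were 40.0, 54.9, 90.4 and 90.7.

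The tryptase genes had a strong site between them, and its ranks overlapped between the states. Tpsb2 (chr17:25503486-25505804, plus strand) and Tpsab1 (chr17:25480190-25482507, minus strand) lie close together, so their windows share peaks. The region 2615 bp upstream of the Tpsb2 start, at chr17:25500507-25501311 between the genes, stood at 93.5 and 86.3 in G1E-ER4 against 88.9 and 90.0 in G1E. Its 4 summits lay within 43 bp, and the state means differed by 0.454 points, less than the 7.16 points between the G1E-ER4 lists. At the Tpsb2 start itself the region at chr17:25501724-25505117 was weak, with 21.1 and 55.0 in G1E-ER4 against 34.0 and 49.2 in G1E, and its summits were spread over 2499 bp. The tryptases are closely related copies, and tags of 20 bases that fit several places were kept at a single best place, so peaks inside these 2 genes are uncertain.

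The Tpsab1 promoter was open in G1E alone, but not strongly. The region at chr17:25481948-25483078 stood at 64.9 and 42.6 in the G1E lists, with summits 1 bp apart and 101 bp upstream of the start. Neither G1E-ER4 list had a peak there, although G1E-ER4 list 2 had one inside the gene at percentile 55.2. Of all G1E-only regions, 32.9% had a mean percentile as high. Another G1E-only region lay 3885 bp upstream of Tpsb2 at chr17:25498743-25499835, at 32.0 and 59.1. Downstream of Tpsab1, 11396 bp from its start, a region (chr17:25468828-25472419) ran from inside Gm8123 past the 3′ end of that gene. The region stood at 87.1 and 82.9 in G1E-ER4 against 85.8 and 79.8 in G1E, and the groups overlapped. Its strongest summit lay between genes, 3247 bp from the Gm8123 start.

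The opposite order, with G1E-ER4 above G1E, was found beside Tpsb2 at 3 regions that lie at Tpsg1 and Cacna1h. Tpsg1 encodes a membrane-bound tryptase and Cacna1h a T-type calcium channel. The Tpsg1 region (chr17:25505970-25508523) stood at 51.4 and 57.1 in G1E-ER4 against 32.0 and 37.7 in G1E. A 10095 bp region over part of Cacna1h (chr17:25510966-25521060) stood at 81.9 and 74.3 against 63.5 and 64.6, and the next one (chr17:25521148-25523882) at 65.6 and 58.4 against 45.8 and 44.9. Another region of Cacna1h (chr17:25524383-25542987) stood at 95.5 and 87.6 in G1E-ER4 against 89.9 and 89.7 in G1E, with summits within 30 bp, and the groups overlapped. These regions fall in the tryptase windows by distance alone, and wide regions of many peaks can hide changes of single sites.

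**Figure D3:**
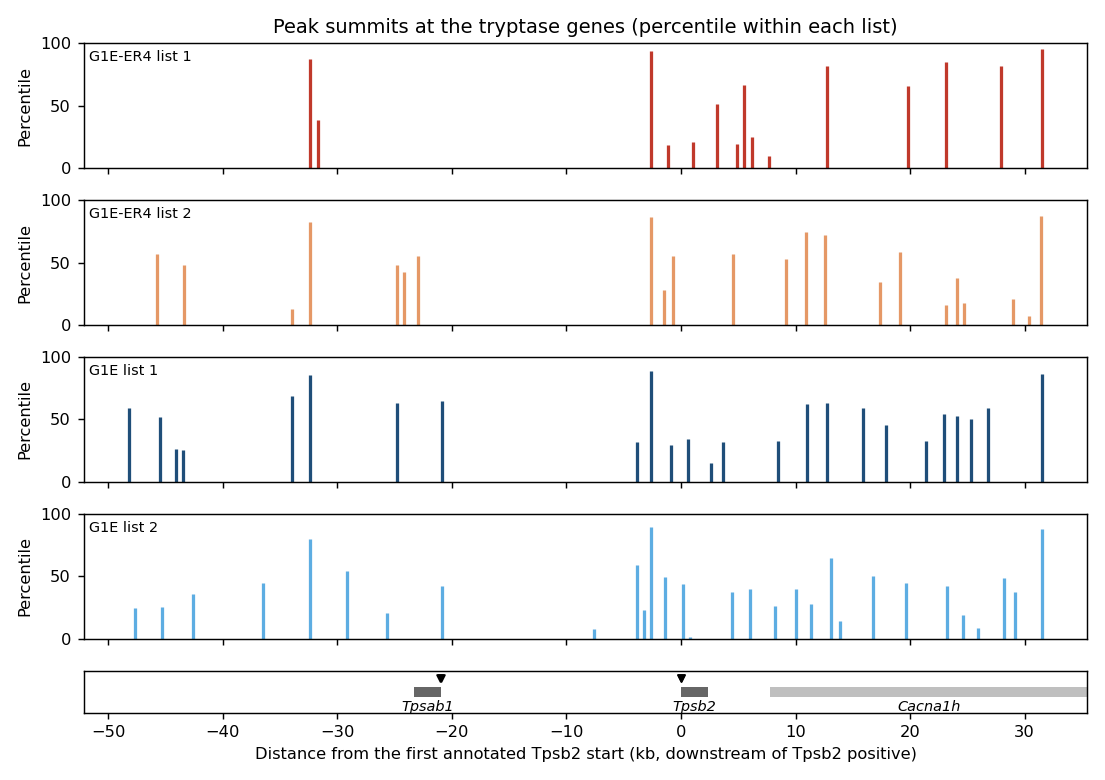
Peak summits around the tryptase genes by distance from the Tpsb2 start (x axis, kb) and percentile within the list (y axis), 1 panel per list; the bottom track shows Tpsab1 and Tpsb2 with their starts (triangles) and part of Cacna1h in light grey. All 4 lists have a summit 2.6 kb upstream of Tpsb2 at percentiles 86.3 to 93.5, and a summit at the Tpsab1 start is present in the 2 G1E lists.

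At Cma1 the regions open in all 4 lists lay beyond the 3′ end of the gene. Cma1 lies on the minus strand at chr14:56560290-56563498. The region 21989 bp downstream of its start and 18781 bp past its 3′ end, at chr14:56541107-56542118, stood at 67.7 and 57.0 in G1E-ER4 against 88.9 and 91.5 in G1E. The groups did not overlap, and the state means differed by 27.9 points, against 10.7 points between the G1E-ER4 lists and 2.62 between the G1E lists. Of all shared regions, 4.73% had a difference as high. The summits of the 2 states also lay apart, with a gap of 113 bp between the G1E-ER4 pair and the G1E pair. A second region, 25832 bp downstream (chr14:56537174-56538177), stood at 85.4, 14.8, 83.5 and 83.0 in the same order of lists, so the G1E-ER4 lists differed by 70.7 points and no direction can be read. G1E-only regions lay 17559 bp downstream (5.46 and 67.2) and 4023 bp downstream (28.1 and 70.9) of the start, both weak in G1E list 1. A pair of regions was missing from G1E-ER4 list 1 alone. The region 15374 bp downstream (chr14:56546875-56549632) had 77.1 in G1E-ER4 list 2, 65.3 in G1E list 1 and 74.9 in G1E list 2, and the region 10877 bp downstream (chr14:56552053-56553801) had 56.2, 43.8 and 68.1. In both, the single G1E-ER4 value was above that of G1E list 1. The promoter had a peak in G1E list 2 alone, at percentile 54.9.

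**Figure D4:**
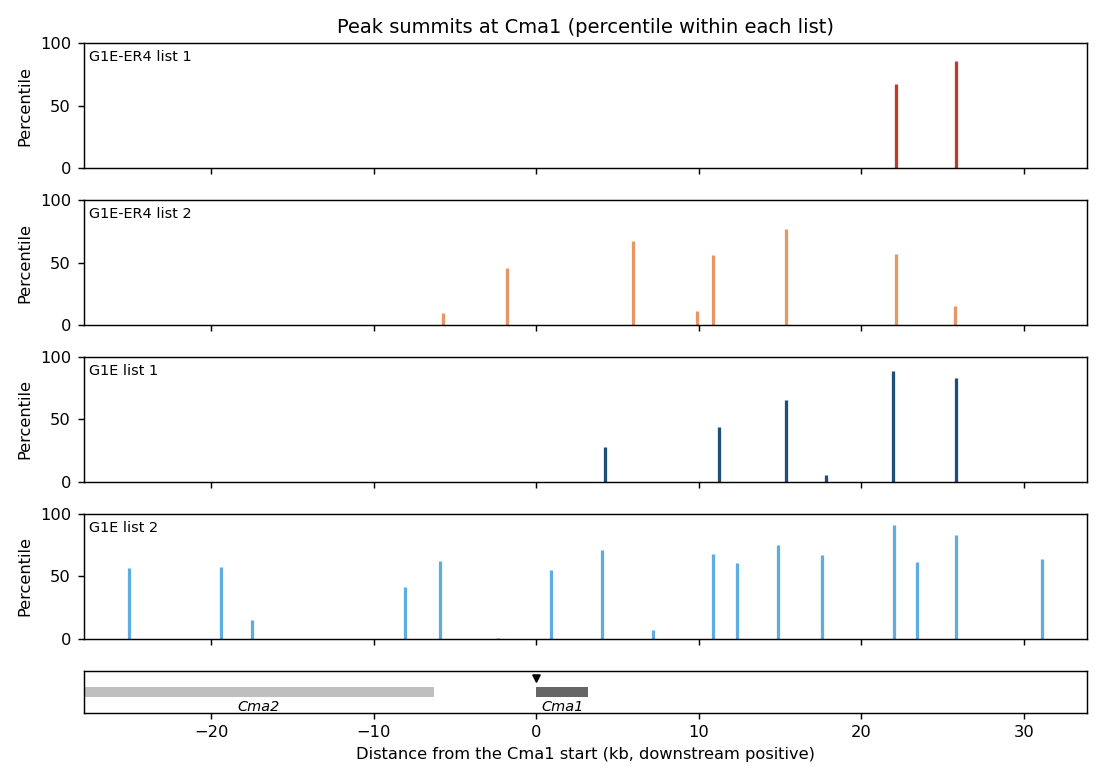
Peak summits around Cma1 by distance from its start (x axis, kb) and percentile within the list (y axis), 1 panel per list; the bottom track shows Cma1 with its start (triangle) and the neighbouring Cma2 in light grey. The site 22.0 kb downstream stands at 67.7 and 57.0 in G1E-ER4 against 88.9 and 91.5 in G1E, and G1E list 2 has many peaks that the other lists lack.

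Cpa3 and Ms4a2 each had 1 region open in all 4 lists, far from the promoter. Cpa3 (chr3:20115516-20142080, minus strand) had its region 16511 bp past its 3′ end at chr3:20097088-20099267, with 74.7 and 76.4 in G1E-ER4 against 58.2 and 72.3 in G1E. The region held 2 separate summit positions. The G1E-ER4 lists peaked at 20099015 and 20099005 and G1E list 2 peaked there too, at 51.9, whereas the strongest G1E summits lay 1035 bp or more away, at 20097970 and 20097944. Inside the gene and at its promoter, peaks came from G1E list 2 alone, with 71.7 at the start and 29.2, 64.5 and 42.3 in introns. A G1E-only region 2014 bp upstream of the start (chr3:20143475-20144333) stood at 46.7 and 68.0, and another past the 3′ end (chr3:20089115-20089603) at 28.6 and 51.5.

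Ms4a2 (chr19:11690013-11698209, minus strand) had its shared region past its 3′ end, at chr19:11685882-11688120, with 80.9 and 67.6 in the G1E-ER4 pair against 19.0 and 81.4 in the G1E pair. The G1E lists differed by 62.4 points there. The 4 summits were spread over 1051 bp, and the states overlapped. Its promoter had a single peak, in G1E list 2 at 44.1. A G1E-only region in an exon of the neighbouring Ms4a3 (chr19:11710117-11710567) stood at 4.41 and 75.4.

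Fcer1a, Mcpt8 and Mitf were closed in both states. Around Fcer1a (chr1:175151402-175157360), the gene of the alpha chain of the IgE receptor, 3 peaks lay between 32693 and 34956 bp downstream of the start. They stood at 14.9 and 24.1 in G1E-ER4 list 1 and at 58.1 in G1E list 1. Around Mcpt8 (chr14:56701003-56704053), G1E-ER4 list 2 had peaks at 9.91 and 8.82 and G1E list 2 had one at 58.3, and the nearest was 5733 bp upstream of the start. A total of 3 peaks or fewer over the 4 lists was found for 18.5% of all gene windows. Mitf (chr6:97757052-97971352) spans 214301 bp with 7 annotated starts, and its 274.3 kb window held 1 peak, in G1E-ER4 list 2 at percentile 23.0 and 1525 bp upstream of the first start. Among the 867 gene windows at least as long, 2.65% had 1 peak or none. The nearest peaks beyond the window lay 189.4 kb upstream and 68.9 kb downstream of the gene, both of G1E list 1, at 11.9 and 16.8. Mitf's relatives Tfe3 and Tfeb, which bind the same E-box, had promoter peaks in all 4 lists at mean percentiles of 92.9 and 98.0, and the third relative, Tfec, had none.

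Counted together, the 84 regions of the 9 windows held 9 found in G1E alone and 0 found in G1E-ER4 alone, a difference that did not hold under 2 other settings. In the first 50% of each list the counts were 3 and 2, and in gene bodies alone they were 0 and 0. Regions of all 4 lists numbered 14 (16.7%, against 15.7% of all merged regions). Regions found in G1E alone, in both of its lists, numbered 9 (10.7%, Wilson 95% interval 5.74 to 19.1%, counting error only, against 3.99% over the genome). The interval, like the limits given next, treats regions as independent, although they cluster in 9 windows. Regions of both G1E-ER4 lists alone numbered 0 (against 2.35%), and a count of 0 in 84 allows a share of up to 3.57% by the limit of 3 counts, or 4.37% by the Wilson 95% interval. Without G1E-ER4 list 1 that count was 6, and without G1E-ER4 list 2 it was 4. The 9 G1E-only regions were spread over Il1rl1, Cma1 and Cpa3 with 2 each and Tpsb2, Tpsab1 and Ms4a2 with 1 each, by nearest gene. At 4 of the 9, G1E list 1 was under percentile 30, so those regions were strong in G1E list 2 at most. Without G1E list 2 the count was 14, without G1E list 1 it was 44, and without G1E-ER4 list 1 or 2 it was 10 and 16, as a class of fewer lists is easier to meet. Among the 14 shared regions, both G1E values were above both G1E-ER4 values at 4 (28.6%, against 16.2% of such regions over the genome). Of these, 3 lay at Il1rl1, counting the intron region joined through G1E list 2, and 1 at Cma1. The reverse held at 4 (28.6%, against 19.0%), 3 of them at Tpsg1 and Cacna1h and 1 at Cpa3. Without G1E-ER4 list 1 these counts were 12 and 9, and without G1E-ER4 list 2 the second was 9. The median difference over the 14 was -1.08 points, against 0.34 over the genome. With so few regions these shares do not set the 9 genes apart.

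**Figure D5:**
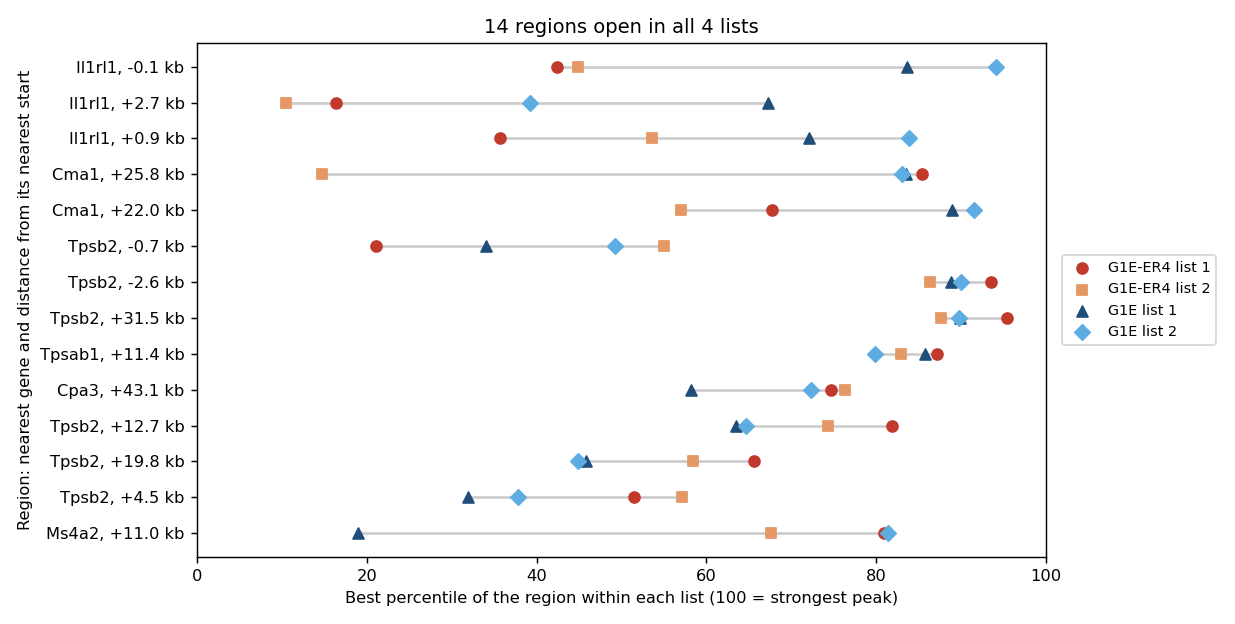
Best percentile within each list (x axis) of the 14 regions open in all 4 lists (rows, named by the nearest of the 9 genes and the distance from its nearest start, sorted by the difference of the state means). Points are single lists, with a line from the lowest to the highest; the 3 Il1rl1 rows have both G1E points to the right of both G1E-ER4 points, and the site 2.6 kb upstream of Tpsb2 has all 4 points between 86.3 and 93.5.

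The 6 further lists of mast cell genes, with 54 genes, were open at all of the listed regulators and at few of the granule proteases. The regulators include Gata2 and Tal1, which the erythroid lineage shares, so their open promoters are not particular to mast cells. All 13 regulators had a promoter peak in all 4 lists, from a mean percentile of 57.6 at Cebpa, a factor of granulocytes, to 97.7 at Gata2, which is needed for mast cells. Cebpa stood at 81.9 and 80.7 in G1E-ER4 against 66.9 and 1.15 in G1E, so its G1E lists did not match. For Gata2 the values were 97.0 and 98.4 in G1E-ER4 against 97.3 and 98.0 in G1E. Of 8 further granule protease genes, 1 was open in all 4 lists, Tpsg1 (12.5%, against 52.5% of all genes). Marker lists of lineages other than erythroid ranged from 0 of 4 for eosinophils to 4 of 6 for megakaryocytes. Mcpt1, Mcpt4 and Ctsg had no promoter peak in any list, like 27.2% of all genes. Mcpt2, Mcpt9 and Gzmb had one in G1E list 2 alone, at 55.8, 62.6 and 64.4. That pattern was also seen at Cpa3, Ms4a2 and Cma1, and at 1.05% of all genes. Prss34 had the lowest mean, 46.0, over 3 lists.

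Receptors, signalling genes and genes for mediators lay between these groups. Their shares open in all 4 lists were 66.7%, 50.0% and 55.6%, against 52.5% of all genes. Of 9 growth factor and cytokine receptor genes, 6 were open in all 4 lists, led by Il3ra, a chain of the IL-3 receptor, at a mean of 95.2. Kit, the stem cell factor receptor, stood at 85.3 and 96.5 in G1E-ER4 against 98.4 and 98.1 in G1E. Il1rap, the partner chain of ST2, stood at 39.6 and 89.8 in G1E-ER4 against 89.6 and 82.7 in G1E, and the groups overlapped. Csf2rb2 had the lowest mean, 56.9, Enpp3, a surface marker of basophils, had no promoter peak, and Cd200r3, a receptor of mast cells and basophils, had one in both G1E lists only, at 44.5 and 71.4. Of 12 IgE receptor signalling genes, 6 were open in all 4 lists, from 21.3 at the adaptor gene Lat2 to 96.5 at Plcg1, a phospholipase C gene. Lcp2, which encodes the adaptor SLP-76, was open in both G1E lists only, at 12.7 and 47.6. Fcer1g, the gamma chain that completes the IgE receptor, had a peak in list 2 of each state, at 46.1 in G1E-ER4 and 32.1 in G1E. Of 9 genes for making and storing mediators, 5 were open in all 4 lists. Hdc, which makes histamine, stood at 61.2 and 60.0 in G1E-ER4 against 29.2 and 69.2 in G1E. Ltc4s, which makes leukotriene C4, had the highest mean of these, 97.0, Slc18a2, the vesicle amine transporter, was in G1E-ER4 list 2 alone at 20.6, and Hpgds, which makes prostaglandin D2, had no promoter peak. Over the 54 genes, 33 were open in all 4 lists (61.1%, against 52.5% of all genes), 13 of them the regulators. Of the 54, 2 were open in both G1E lists only and 0 in both G1E-ER4 lists only. Over all genes these patterns had shares of 0.8% and 1.17%, and with counts this small no direction is read.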

How the data were processed

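DNase-seq of 2 samples was read from 4 deposited peak lists. Per the series design text, tags of 20 bases were aligned to mm9 with Bowtie, a tag that fit several places was placed at the best one, lanes were combined, F-seq made a density and peaks came from a gamma fit, separately for each replicate. Versions, the threshold and read numbers were not given in the sources used here. Each peak carries a signal value, which is the density the authors deposited, with no stated scaling between lists. It was therefore used only to rank peaks within a list, with ties at their mean rank. Since every list has the same length, peaks compete for a place in it.

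Genes were placed with GENCODE vM1 protein-coding models on mm9 and coordinates are 1-based. Peaks overlapping by at least 1 bp were merged, and a region takes its best peak in each list. A region belongs to a window when it holds a peak with its summit there. The 9 genes and 16 further lists were chosen with earlier results of these data known. All 115 genes were matched, 5 through RefSeq synonyms (GRCm38.p6, names only). The text names genes of one-state promoters, the highest and lowest mean and those without a peak in the 6 mast cell lists, and counts in the 10 marker lists; other genes named were chosen after their values were seen. The steps were tested on simulated data with narrow peaks at well-separated sites, so chains of peaks and wide regions were not tested. Python 3.11.15, pandas 2.3.3 and numpy 2.4.6 were used.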

Additional observations from a re-analysis of the deposited data

How the results depend on the processing

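The number of the 9 promoters open in all 4 lists (2) was 1 with a promoter reach of 500 bp, 2 with 2000 bp and 0 in the first 50% of each list, and 2 to 2 with each list left out. The 14 shared regions became 4 in gene bodies alone, 9 within 10 kb, 16 within 50 kb, 6 in the first 50% and 5 with overlap of 50% of both peaks. The 9 G1E-only regions became 0, 5, 13, 3 and 5 in the same order. The 0 G1E-ER4-only regions became 2 in the first 50% and were 0 in the other 4. Shared regions with both G1E values higher (4) became 3, 3, 4, 1 and 2 in that order, and those with both G1E-ER4 values higher (4) became 0, 2, 4, 2 and 0. With percentiles among peaks outside promoters each direction had 2. Leaving out each list in turn gave 13 to 25 shared regions, 10 to 44 G1E-only regions, 0 to 6 G1E-ER4-only regions, 3 to 12 with G1E higher and 5 to 9 with G1E-ER4 higher. Without G1E-ER4 list 1 these were 25, 10, 6, 12 and 9. Without G1E-ER4 list 2 there were 16 G1E-only and 4 G1E-ER4-only regions, and 9 with G1E-ER4 higher. Without G1E list 1 there were 44 G1E-only regions, and without G1E list 2 there were 14. Smaller windows, fewer peaks and fewer lists change such counts by their construction. No paired analysis was possible because each state is 1 sample and no test was made. Read depth is unknown, so an absent peak may lie under the limit of a list of 100000.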
